A study of Homo sapiens with 12 samples.

Results

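The kinesin family genes described here were the protein-coding genes whose GENCODE symbol starts with KIF followed by a digit. The deposited table held 40 of them among its 19737 protein-coding genes and 58051 genes in all. One of the 40, KIF1BP, encodes a protein that binds kinesins and is no motor itself. Of the 40, 30 passed the filter on low counts and were tested among 14214 genes, and 11 of those 30, whose best known work is in mitosis or cytokinesis, are called mitotic members here. This grouping was made with earlier results of these data known. RNA came from MV4-11, a human acute myeloid leukaemia cell line, in 12 libraries. Cells were kept for 6 h with 0.1% DMSO as vehicle or with 200 nM of palbociclib, BSJ-03-123 or YKL-06-102, 3 libraries each. Palbociclib inhibits the kinases CDK4 and CDK6, and the submitters describe the other two compounds as CDK6-specific phthalimide conjugates.

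Kinesins are motor proteins that use ATP to move along microtubules or to take them apart. One set builds the mitotic spindle, moves chromosomes and completes cell division, and its genes are transcribed mainly in G2 and mitosis. The other set carries vesicles, mitochondria and ciliary cargo in cells at any stage. In dividing cells many G2/M genes carry a CHR element, bound by the DREAM and MYB-MuvB complexes, and a CCAAT box, bound by NF-Y, near the start of transcription.

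All 10 myeloid leukaemia markers looked at were at 1 CPM (the count scaled to library size) or more with DMSO. Of other cell types, 0 of 5 lymphoid, 0 of 4 erythroid, 1 of 6 stromal and epithelial (KRT18) and 1 of 4 neuronal markers (SYP) were, and each list summed to at most 13.8 CPM in any library. Library totals ranged from 18764307 to 25539858 counts. DMSO replicate 2 stood apart: a chi-square test of its counts gave 5.89 and 8.93 per degree of freedom when set against DMSO replicates 1 and 3, and all other replicate pairs were at 2.95 or less. It also had the lowest CPM of the 3 DMSO libraries for 10 of the 11 mitotic members. Whether replicates came from separate cultures is not in the labels, so each p-value reflects library-to-library spread that may be purely technical. In bulk RNA, fewer cells in a cell cycle phase and less RNA per cell cannot be told apart.

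The promoters of the mitotic members were searched because these genes moved together. RefSeq windows (GRCh38.p14) from 250 bases before to 50 after a start were matched for 33 of the 40 genes. A gene counted when any of its windows held a motif, read on both strands: TTTGAA for the CHR, CCAAT for the CCAAT box, and TTTCGCGC, TTTGGCGC, TTTCCCGC and TTTGCCGC for E2F. Of the 11 mitotic members, 8 had a CHR match, 9 a CCAAT match, 7 both and 1 an E2F match. Of the 14 other tested genes with a window, 1 had a CHR match, 5 a CCAAT match, 1 both and 0 an E2F match. Across all 35116 windows the shares were 15.2%, 34.6%, 5.90% and 3.31% in the same order. These shares are per window and the counts above per gene, and a gene with several windows has more places for a match. A match is a description of letters and not evidence of binding.

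The stretches below, read 5′ to 3′ on the gene's own strand, show 5 mitotic members and KIF24, the member with the lowest log2 fold change with palbociclib and with BSJ-03-123. Capitals mark matches to a searched motif on either strand (ATTGG is CCAAT and TTCAAA is TTTGAA read from the other strand, and the E2F match of KIF15 is on that strand too).
KIF11 (chr10:92593050-92593129, plus strand): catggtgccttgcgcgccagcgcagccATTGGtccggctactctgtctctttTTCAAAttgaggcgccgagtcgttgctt
KIF4A (chrX:70290024-70290089, plus strand): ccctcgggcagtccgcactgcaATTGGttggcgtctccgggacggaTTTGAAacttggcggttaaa
KIF23 (chr15:69414279-69414308, plus strand): gcgctgATTGGcccgTTTGAAatgcgccag
KIF15 (chr3:44761744-44761773, plus strand): gatccaaGCGCCAAATTCAAAtttgcggcc
KIF18B (chr17:44947774-44947853, minus strand): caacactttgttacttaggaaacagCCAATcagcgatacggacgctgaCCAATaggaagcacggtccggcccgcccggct
KIF24 (chr9:34329299-34329428, minus strand): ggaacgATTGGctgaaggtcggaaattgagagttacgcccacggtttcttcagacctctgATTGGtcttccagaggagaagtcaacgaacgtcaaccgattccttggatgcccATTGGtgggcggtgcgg

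In KIF11 and KIF4A a CCAAT match lay upstream of a CHR match, beginning 53 and 28 bases before the start in KIF11 and 58 and 34 in KIF4A. KIF23 had the same pair closer together, 64 and 55 bases before the start. In KIF15 the E2F match ended directly before the CHR match with no shared base, and no CCAAT was found. KIF18B had CCAAT matches 55 and 32 bases before the start and its CHR match at base 3 after it, outside the printed stretch. KIF24 had 3 CCAAT matches and no CHR or E2F match, at a RefSeq start that lies upstream of the gene's 5′ end in GENCODE 29. All distances here are from RefSeq starts. The printed stretches of KIF15 and KIF23 lie downstream of their GENCODE 29 starts, at 44761717 and 69414246, and so inside the annotated genes. KIF2C had none of the letters searched in its window, KIF20A and KIF22 had CCAAT matches only, and none of this says what binds there.

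**Figure D1:**
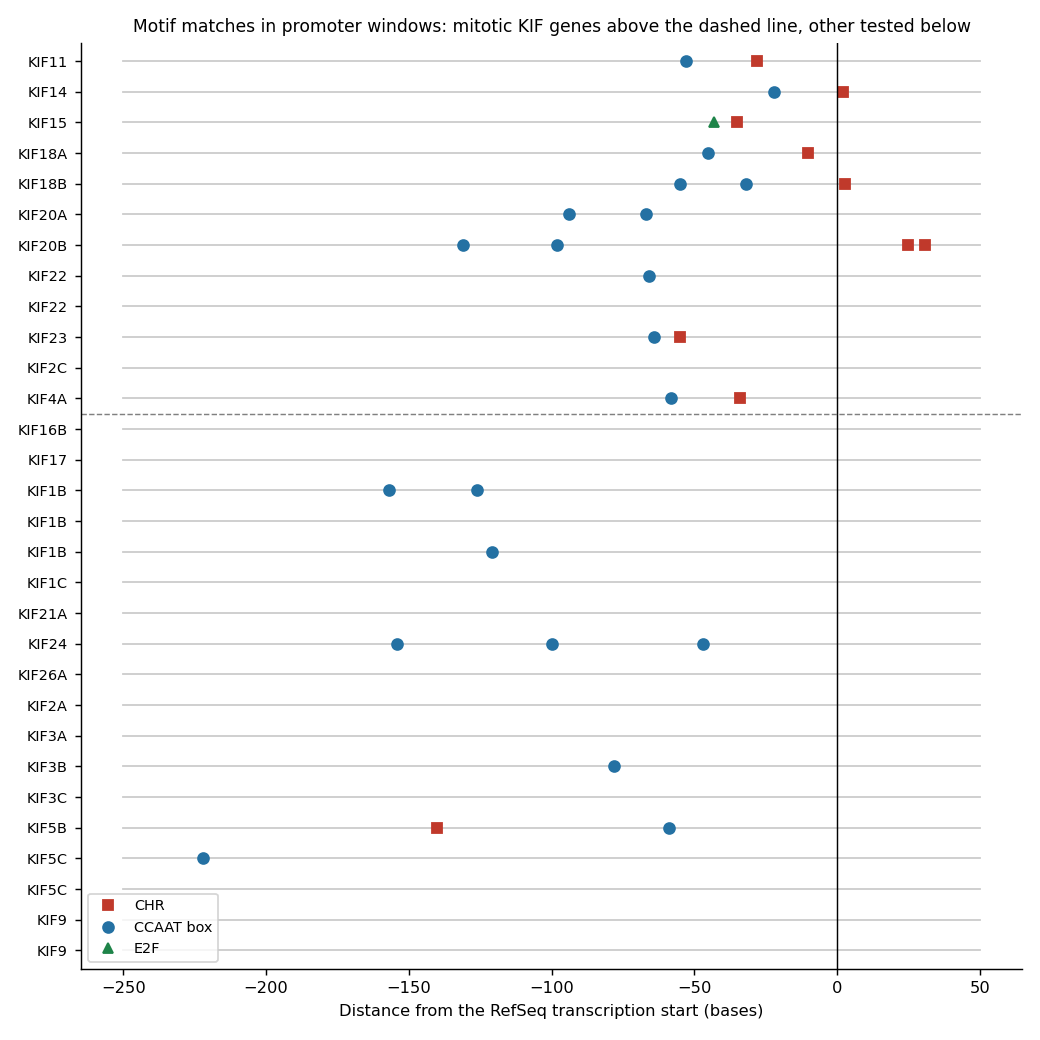
Positions of motif matches (squares CHR, circles CCAAT box, triangle E2F) in RefSeq promoter windows of tested KIF genes, as the distance in bases from the start of transcription; a gene with several starts has several lines. CHR matches are found in 8 of the 11 mitotic members above the dashed line and in 1 of 14 other tested genes below it.

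With DMSO the mitotic members were among the more abundant kinesin mRNAs. Per kilobase of merged exon length, the highest level was that of KIF5B, the heavy chain of kinesin-1 found in most tissues, at 51.9 ± 1.48 RPKM (RPKM is CPM per kilobase, SD, n = 3). Next came KIF2C at 47.7 ± 0.793 RPKM, KIF22 at 40.8 ± 1.68 RPKM, KIF11 at 28.1 ± 1.40 RPKM and KIF20A at 23.9 ± 1.09 RPKM. Each of these 5 exceeded the next in every DMSO library. The following neighbours, KIF20B, KIF2A, KIF15 and KIF18B, overlapped in range one after the other. All 11 mitotic members lay above the median of the tested genes with an annotated length, 4.78 RPKM, and the lowest of them was KIF14 at 6.78 ± 0.595 RPKM. Of the 19 other tested genes 5 lay above that median: KIF5B, KIF2A, KIF21B, KIF1C and KIF3B. The lowest 5, KIF3C, KIF27, KIF26B, KIF21A and KIF5C, were between 0.132 and 0.256 RPKM.

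**Figure D2:**
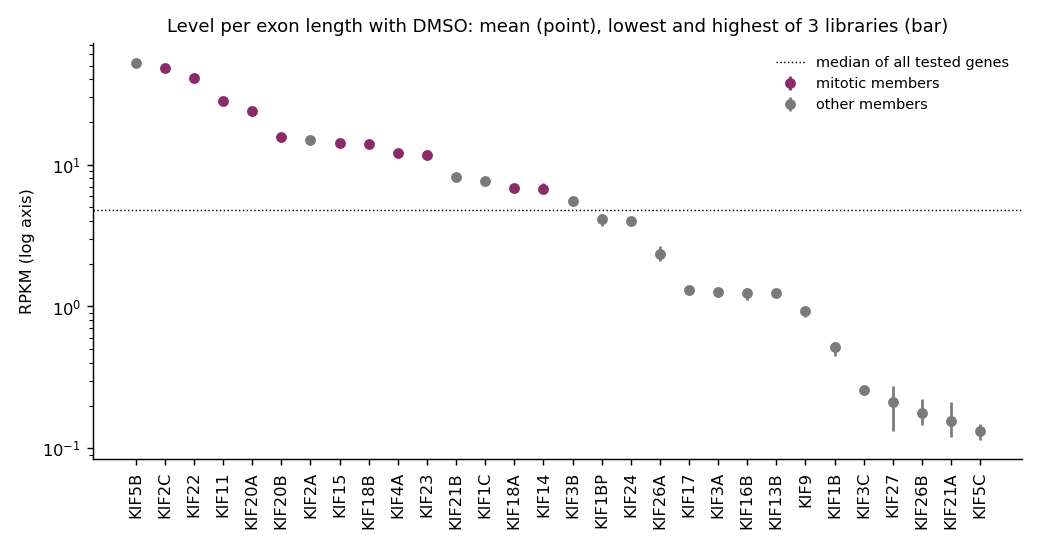
Level of each tested KIF gene with DMSO in RPKM on a log axis, as the mean (point) with the lowest and highest of 3 libraries (bar). All 11 mitotic members sit above the dotted median of all tested genes, while most other members sit below it.

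All 11 mitotic kinesins fell with each of the 3 compounds. The median log2 fold change over the 11 was -0.45 with palbociclib, -0.45 with BSJ-03-123 and -0.35 with YKL-06-102, where the medians of all tested genes were 0.014, 0.0075 and -0.017. Their summed level was 1044, 1011 and 1070.4 CPM in the DMSO libraries, 744, 739.7 and 742 CPM with palbociclib, 754, 749 and 758 CPM with BSJ-03-123 and 796, 794 and 796 CPM with YKL-06-102. These means were 71.2%, 72.4% and 76.4% of the DMSO mean for palbociclib, BSJ-03-123 and YKL-06-102. Among all 30 tested members, 15 were lower and 5 higher with palbociclib, 14 and 3 with BSJ-03-123, and 18 and 4 with YKL-06-102 (quasi-likelihood test of edgeR, p adjusted over all tested genes and called below 0.05). Of all tested genes, 17.6%, 15.7% and 21.3% were called lower and 15.6%, 12.4% and 15.6% higher in the same order, in sum 33.3%, 28.1% and 36.9%. The share of members called lower was thus above the background, and the share called higher near it. The 3 comparisons share their DMSO libraries. Without DMSO replicate 2, all 11 mitotic members were still called lower with each compound, with medians of -0.47, -0.47 and -0.34. The call of KIF18A with YKL-06-102 was lost under other alternatives, so that 10 of the 11 were then called lower. In what follows, log2 fold changes carry standard errors (SE) from the edgeR fit.

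**Figure D3:**
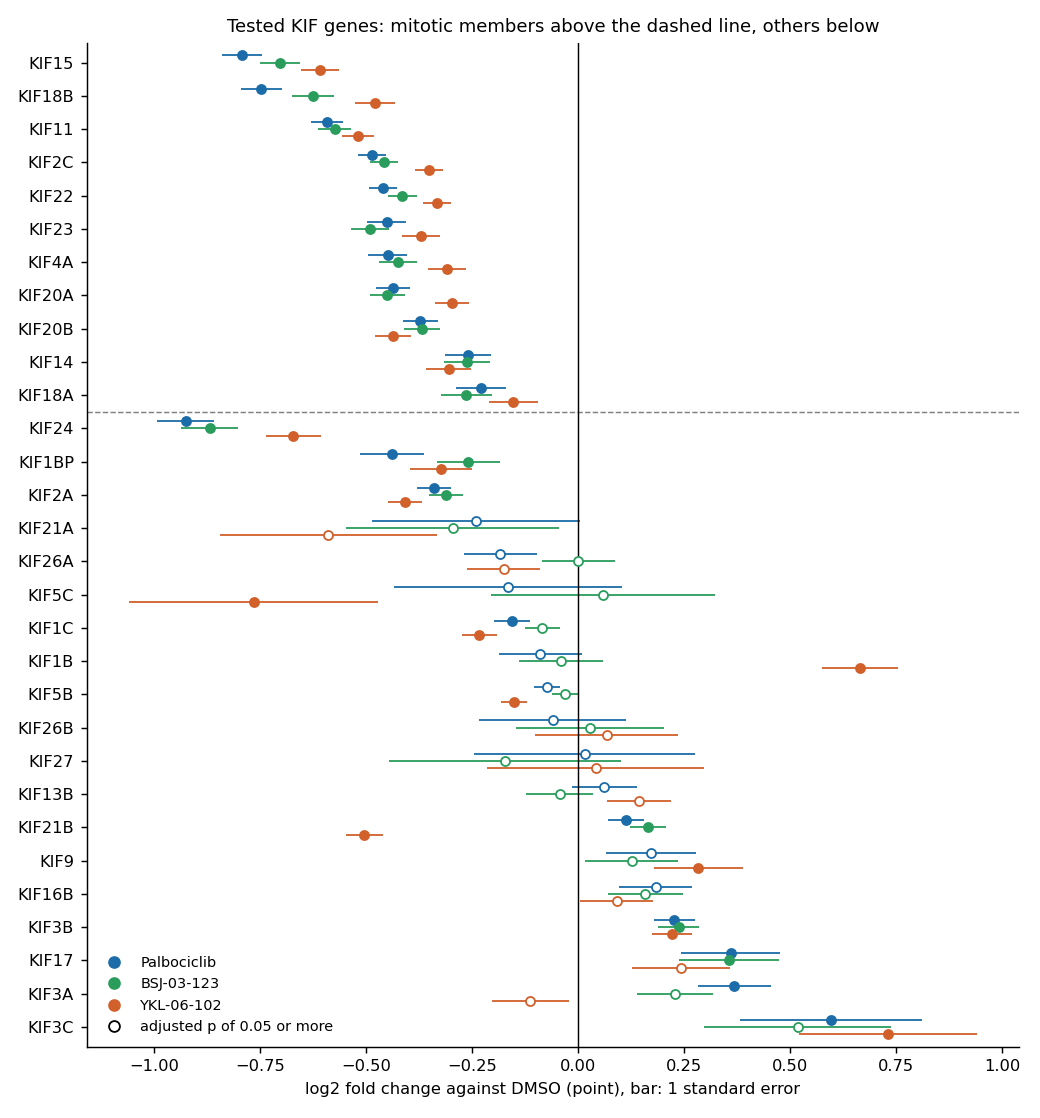
Log2 fold change against DMSO of each of the 30 tested KIF genes (points) with 1 standard error (bars), by compound; filled points passed the test and open points did not. Every mitotic member above the dashed line is left of 0 for each compound, and KIF1B, KIF21B and KIF3A below it show YKL-06-102 apart from the other compounds.

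KIF11 and KIF15 keep the spindle bipolar by sliding antiparallel microtubules apart, KIF11 as the main motor. KIF11 measured 136, 130.4 and 144 CPM in the DMSO libraries, 90.6, 91.5 and 89.7 with palbociclib, 90.9, 95.2 and 89.0 with BSJ-03-123 and 94.8, 96.8 and 94.4 with YKL-06-102. Its log2 fold changes were -0.59 ± 0.038, -0.57 ± 0.038 and -0.52 ± 0.037 in that order. The treated libraries lay close together and well below all DMSO libraries. KIF15 measured 74.7, 72.9 and 79.2 CPM with DMSO, 46.1, 42.0 and 42.5 with palbociclib, 44.2, 48.4 and 46.5 with BSJ-03-123 and 49.2, 50.05 and 49.3 with YKL-06-102. At -0.79 ± 0.046, -0.70 ± 0.046 and -0.61 ± 0.045 it had the largest decrease among the 11 with each compound (edgeR adjusted p = 3.61e-14, 7.31e-13 and 8.00e-12). Its YKL-06-102 libraries were all above the palbociclib libraries, a difference that passed the test (0.18 ± 0.047, adjusted p = 0.00437 in edgeR). KIF11 is annotated in GRCh38 as ENSG00000138160, chromosome 10, 92593286 to 92655395, plus strand, and KIF15 as ENSG00000163808, chromosome 3, 44761717 to 44873376, plus strand.

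The chromokinesins bind chromosome arms: KIF22 pushes them towards the spindle equator, and KIF4A also works at the midzone with PRC1. KIF22 measured 176, 183 and 169 CPM with DMSO, 129, 128 and 127 with palbociclib, 135, 130.4 and 131 with BSJ-03-123 and 139, 138 and 142 with YKL-06-102, or -0.46 ± 0.034, -0.41 ± 0.034 and -0.33 ± 0.033 as log2 fold changes. KIF4A measured 53.7, 52.9 and 56.5 CPM with DMSO, 41.0, 38.5 and 39.8 with palbociclib, 40.3, 40.1 and 41.0 with BSJ-03-123 and 45.7, 43.0 and 42.8 with YKL-06-102, or -0.45 ± 0.045, -0.42 ± 0.046 and -0.31 ± 0.044. For both genes the 3 treated groups were below every DMSO library, and the YKL-06-102 libraries were above those of palbociclib. That last difference was 0.13 ± 0.034 for KIF22 and 0.14 ± 0.046 for KIF4A (edgeR adjusted p = 0.00557 and 0.0232). The KIF4A call between those compounds was lost without YKL-06-102 replicate 1 or palbociclib replicate 2.

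At microtubule ends, KIF2C depolymerises kinetochore microtubules, KIF18A limits chromosome oscillation at the metaphase plate, and KIF18B restrains astral microtubules. KIF2C measured 177, 172 and 173 CPM with DMSO, 126, 123 and 124 with palbociclib, 132, 123 and 125 with BSJ-03-123 and 136, 136 and 136 with YKL-06-102. KIF18B measured 64.0, 63.1 and 67.8 CPM with DMSO, 36.3, 39.8 and 40.2 with palbociclib, 41.4, 42.3 and 42.5 with BSJ-03-123 and 46.6, 44.1 and 48.9 with YKL-06-102. In both genes no treated library reached the DMSO range, and all YKL-06-102 libraries were above all others of the treated cells. Their log2 fold changes were -0.49 ± 0.033, -0.46 ± 0.033 and -0.35 ± 0.033 for KIF2C and -0.75 ± 0.049, -0.62 ± 0.049 and -0.48 ± 0.047 for KIF18B. YKL-06-102 exceeded palbociclib by 0.13 ± 0.033 and 0.27 ± 0.050 (edgeR adjusted p = 0.00274 and 1.36e-04). KIF18A had the smallest decrease of the 11 with palbociclib and YKL-06-102, going from 33.0, 29.7 and 33.9 CPM with DMSO to 26.1, 27.1 and 29.02 with palbociclib, 25.1, 28.3 and 26.7 with BSJ-03-123 and 28.0, 29.4 and 29.2 with YKL-06-102. Its DMSO and treated libraries came close to each other, and DMSO replicate 2 was only just above YKL-06-102 replicate 2. The changes were -0.23 ± 0.059, -0.26 ± 0.060 and -0.15 ± 0.058. The call with YKL-06-102 (edgeR adjusted p = 0.0409) was lost under 13 of 18 alternatives, among them DESeq2 (adjusted p = 0.111), library totals in place of TMM factors (0.133) and the omission of any 1 YKL-06-102 library (0.0992 to 0.209).

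The cytokinesis motors are KIF23, which forms centralspindlin with RACGAP1, KIF20A, which carries the chromosomal passenger complex to the midzone, KIF20B, which acts in abscission, and KIF14, which holds citron kinase at the midbody. KIF23 measured 77.7, 71.6 and 82.1 CPM with DMSO, 55.0, 56.1 and 57.8 with palbociclib, 54.2, 53.4 and 56.7 with BSJ-03-123 and 59.7, 60.3 and 58.4 with YKL-06-102, or -0.45 ± 0.045, -0.49 ± 0.046 and -0.37 ± 0.045. KIF20A measured 94.9, 89.9 and 98.6 CPM with DMSO, 70.3, 69.1 and 69.7 with palbociclib, 68.7, 66.6 and 71.9 with BSJ-03-123 and 78.2, 74.2 and 78.0 with YKL-06-102, or -0.44 ± 0.041, -0.45 ± 0.041 and -0.30 ± 0.040. Neither gene's treated libraries reached the DMSO range, and the YKL-06-102 libraries of both were above every library of the other compounds. For KIF20A this passed the test against palbociclib (0.14 ± 0.041, edgeR adjusted p = 0.0115). For KIF23 it did not (0.080 ± 0.046, 95% interval -0.013 to 0.17, edgeR adjusted p = 0.220).

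KIF20B and KIF14 did not show that order. KIF20B measured 110.2, 99.4 and 113 CPM with DMSO, 81.0, 85.4 and 82.3 with palbociclib, 82.8, 81.8 and 84.5 with BSJ-03-123 and 79.6, 81.5 and 76.6 with YKL-06-102, or -0.37 ± 0.042, -0.37 ± 0.043 and -0.44 ± 0.042. KIF14 measured 47.5, 46.2 and 54.3 CPM with DMSO, 43.2, 39.6 and 40.3 with palbociclib, 40.1, 40.1 and 42.8 with BSJ-03-123 and 39.1, 40.2 and 40.1 with YKL-06-102, or -0.26 ± 0.054, -0.26 ± 0.054 and -0.30 ± 0.053. All treated libraries of both genes were below all DMSO libraries. YKL-06-102 differed from palbociclib by -0.064 ± 0.043 for KIF20B (95% interval -0.15 to 0.023) and by -0.046 ± 0.054 for KIF14 (-0.16 to 0.065), and neither passed the test (edgeR adjusted p = 0.306 and 0.597).

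**Figure D4:**
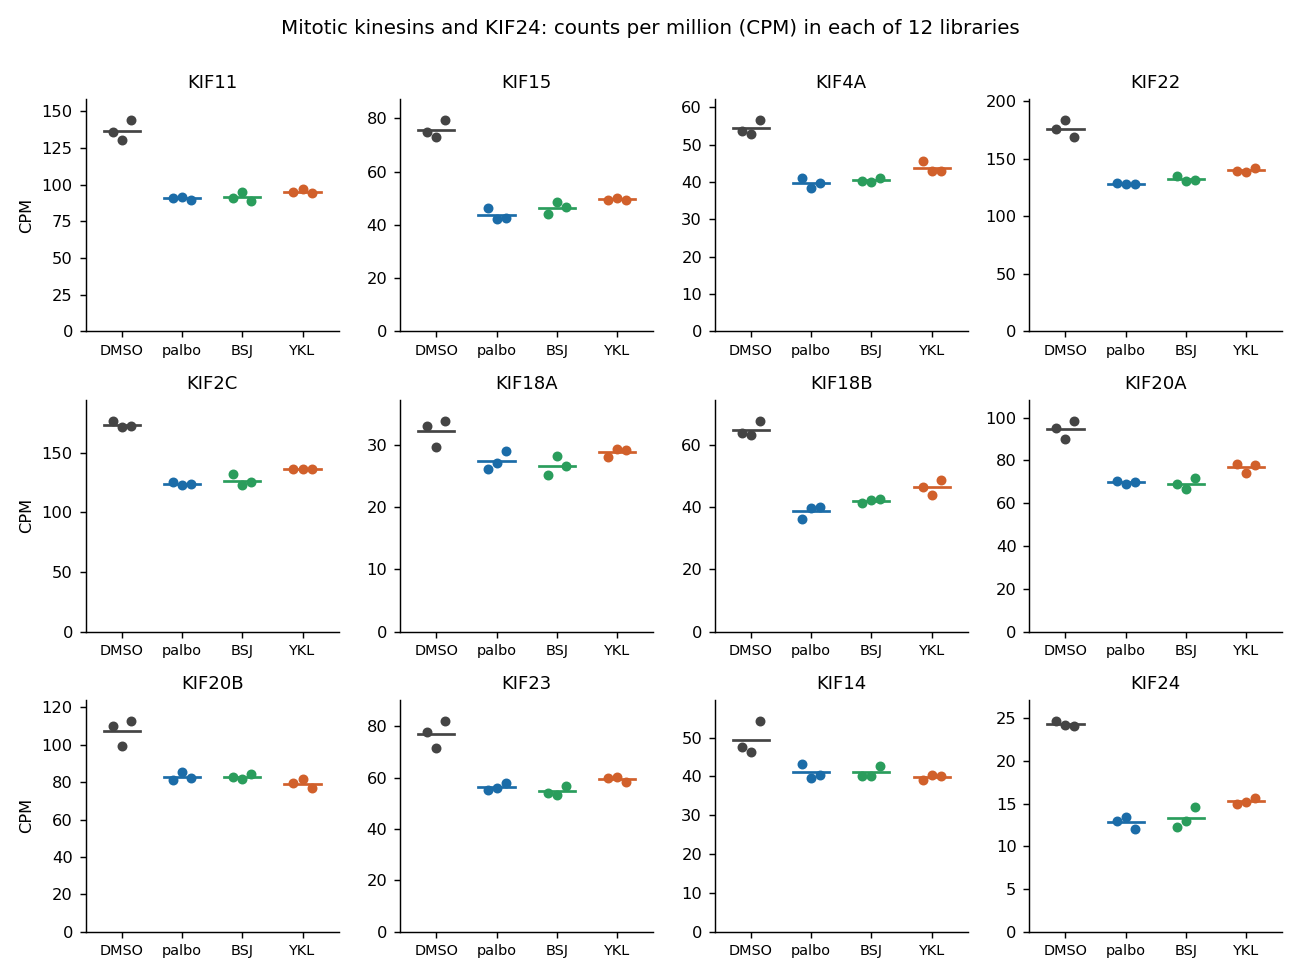
CPM of the 11 mitotic kinesins and KIF24 in each library (points) with the group mean (line), from 0; palbo, BSJ and YKL stand for palbociclib, BSJ-03-123 and YKL-06-102. The 3 DMSO libraries are above all treated libraries in each panel, with the groups closest in KIF18A.

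Outside the mitotic group, KIF24, KIF2A and KIF1BP also fell with each compound. KIF24, a microtubule depolymerase of the centriole that restrains cilium formation, had a larger estimated decrease than any mitotic member with each compound, a difference between genes that was not tested. It measured 24.7, 24.2 and 24.1 CPM with DMSO, 12.96, 13.4 and 12.1 with palbociclib, 12.3, 13.02 and 14.7 with BSJ-03-123 and 15.03, 15.2 and 15.7 with YKL-06-102. The DMSO libraries were tightly grouped and every treated library was far below them, with the YKL-06-102 libraries highest among the treated. Its log2 fold changes were -0.92 ± 0.068, -0.87 ± 0.068 and -0.67 ± 0.064, and YKL-06-102 exceeded palbociclib by 0.25 ± 0.071 (edgeR adjusted p = 0.00774). KIF24 is annotated as ENSG00000186638, chromosome 9, 34252381 to 34311371, minus strand, and 143 of its exonic bases, 2.33%, are shared with UBAP1 on the other strand, which had more counts. KIF2A, a depolymerase of spindle poles and of interphase microtubules, went from 71.5 ± 2.45 CPM (SD, n = 3) with DMSO to 56.5 ± 0.840 with palbociclib, 57.6 ± 0.682 with BSJ-03-123 and 53.9 ± 1.30 with YKL-06-102. Its log2 fold changes were -0.34 ± 0.040, -0.31 ± 0.040 and -0.41 ± 0.040. For KIF1BP, which holds several kinesins in an inactive state, they were -0.44 ± 0.075, -0.26 ± 0.074 and -0.32 ± 0.073. It is not known here if counting used strand. KIF20A, KIF18A and KIF4A likewise share between 1.31% and 3.34% of their exon length with protein-coding genes on the other strand, and KIF2A shares 8.97% with IPO11 on the same strand. KIF22, KIF2C and KIF23 share 13.01%, 4.8% and 3.51% with antisense genes that had 60, 432 and 32 counts in all.

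The kinesin-2 motors, which carry cargo in the cilium and in the cytoplasm, were higher in part. KIF3B, a partner of KIF3A in the heterotrimeric motor, rose with each compound. It measured 34.0, 33.4 and 33.5 CPM with DMSO, 40.9, 38.2 and 38.9 with palbociclib, 40.5, 40.6 and 37.9 with BSJ-03-123 and 40.05, 39.4 and 38.3 with YKL-06-102, or 0.23 ± 0.048, 0.24 ± 0.049 and 0.22 ± 0.048. All 9 treated libraries were above the DMSO libraries, and the compounds overlapped. KIF3A measured 8.01, 8.96 and 9.01 CPM with DMSO, 12.1, 11.4 and 10.1 with palbociclib, 10.1, 10.5 and 9.91 with BSJ-03-123 and 7.66, 8.32 and 8.11 with YKL-06-102. It rose with palbociclib (0.37 ± 0.086, edgeR adjusted p = 0.00122), while 0.23 ± 0.089 with BSJ-03-123 (adjusted p = 0.0535) and -0.11 ± 0.090 with YKL-06-102 (adjusted p = 0.3598) did not pass the edgeR test. All BSJ-03-123 libraries were above all DMSO libraries, and the BSJ-03-123 rise was called with library totals and without palbociclib replicate 3. The YKL-06-102 libraries were below those of both other compounds. The difference from palbociclib was -0.48 ± 0.085, and BSJ-03-123 exceeded YKL-06-102 by 0.34 ± 0.087 (edgeR adjusted p = 6.69e-05 and 0.00505). KIFAP3, the subunit that joins KIF3A and KIF3B to cargo, rose with palbociclib (0.22 ± 0.075, edgeR adjusted p = 0.0245) and was at 0.069 and 0.10 with BSJ-03-123 and YKL-06-102, not called. Its palbociclib call was lost with DESeq2 and without DMSO replicate 1 or 2 or palbociclib replicate 1 or 3 (0.16 to 0.22).

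KIF3C, which can pair with KIF3A, was near the lower end of detection at 1.52, 1.78 and 1.63 CPM with DMSO, 2.80, 1.77 and 2.94 with palbociclib, 1.61, 2.87 and 2.59 with BSJ-03-123 and 2.83, 2.73 and 2.68 with YKL-06-102. It rose with YKL-06-102 (0.73 ± 0.21, edgeR adjusted p = 0.00556) and palbociclib (0.60 ± 0.21, adjusted p = 0.0301). With palbociclib 1 library lay within the DMSO range, and the call was lost without DMSO replicate 1 or 3 or palbociclib replicate 1 or 3 (0.48 to 0.58). With BSJ-03-123 it was at 0.52 ± 0.22 (edgeR adjusted p = 0.0770), called under 3 of 18 alternatives, among them the omission of BSJ-03-123 replicate 1 (0.72), the library nearest to DMSO. KIF17, a kinesin-2 that works as a dimer of itself, measured 5.76, 6.25 and 5.37 CPM with DMSO, 7.31, 7.55 and 7.62 with palbociclib, 8.83, 7.66 and 5.99 with BSJ-03-123 and 6.51, 6.997 and 7.21 with YKL-06-102. It rose with palbociclib (0.36 ± 0.12) and BSJ-03-123 (0.36 ± 0.12), with YKL-06-102 at 0.24 ± 0.12, which missed the threshold (edgeR adjusted p = 0.104). All YKL-06-102 libraries were above all DMSO libraries, and the YKL-06-102 rise was called without DMSO replicate 2. BSJ-03-123 replicate 3 lay within the DMSO range. The palbociclib call was lost without DMSO replicate 3 (0.31), and that of BSJ-03-123 without either of its replicates 1 and 2 (0.22 and 0.33), without DMSO replicate 1 or 3 (0.34 and 0.30) and in a fit of the 2 groups alone.

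Among transport kinesins, 2 moved with YKL-06-102 in a way not seen with the other compounds, and the direct comparisons tested this. KIF1B, a kinesin-3 that carries mitochondria and synaptic vesicle precursors, measured 9.68, 7.91 and 9.88 CPM with DMSO, 8.53, 9.32 and 7.66 with palbociclib, 9.13, 9.09 and 8.25 with BSJ-03-123 and 14.9, 13.4 and 14.7 with YKL-06-102. The YKL-06-102 libraries were above all 9 others, which overlapped. KIF1B rose 1.59-fold against DMSO (0.66 ± 0.089, edgeR adjusted p = 5.47e-07), with palbociclib at -0.088 ± 0.098 and BSJ-03-123 at -0.039 ± 0.099. It was higher with YKL-06-102 than with palbociclib by 0.75 ± 0.088 (edgeR adjusted p = 1.08e-07), and BSJ-03-123 against YKL-06-102 gave -0.70 ± 0.090 (adjusted p = 6.20e-07).

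KIF21B, a kinesin-4 that limits microtubule growth in neurons and lymphocytes, went the other way. It measured 95.2, 105 and 99.1 CPM with DMSO, 109, 109.7 and 104 with palbociclib, 106, 116 and 113 with BSJ-03-123 and 71.7, 66.6 and 72.9 with YKL-06-102. Every YKL-06-102 library was below all others. KIF21B fell with YKL-06-102 (-0.50 ± 0.044, edgeR adjusted p = 2.14e-10) and rose slightly with BSJ-03-123 (0.16 ± 0.042) and palbociclib (0.11 ± 0.042). The palbociclib call (edgeR adjusted p = 0.0406) was lost under 10 of 18 alternatives, among them DESeq2 and the omission of either DMSO replicate 1 or 3 or palbociclib replicate 1 or 2, and the BSJ-03-123 call without BSJ-03-123 replicate 2 (0.13). YKL-06-102 against palbociclib was -0.62 ± 0.043 and BSJ-03-123 against YKL-06-102 0.67 ± 0.043 (edgeR adjusted p = 5.74e-12 and 1.78e-12). In GRCh38 KIF1B is ENSG00000054523, chromosome 1, 10210805 to 10381603, plus strand, and KIF21B is ENSG00000116852, chromosome 1, 200969390 to 201023700, minus strand.

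The kinesin-1 genes KIF5B and KIF5C and the kinesin-3 gene KIF1C also fell with YKL-06-102. KIF5B measured 305, 296 and 313 CPM with DMSO, 289, 294 and 285 with palbociclib, 290.2, 305 and 299.7 with BSJ-03-123 and 271, 279 and 273 with YKL-06-102. The YKL-06-102 libraries were below all others, and the change was -0.15 ± 0.031 (edgeR adjusted p = 2.37e-04), while -0.074 ± 0.031 with palbociclib and -0.030 ± 0.031 with BSJ-03-123 did not pass the test. The palbociclib decrease was called without DMSO replicate 2 and without BSJ-03-123 replicate 1. KIF1C, a kinesin-3 that carries dense-core vesicles and integrins, measured 65.0, 69.5 and 62.3 CPM with DMSO, 59.6, 58.8 and 58.7 with palbociclib, 61.6, 63.7 and 60.9 with BSJ-03-123 and 56.1, 56.1 and 55.7 with YKL-06-102. It fell with YKL-06-102 (-0.23 ± 0.042) and palbociclib (-0.16 ± 0.042), and -0.084 ± 0.042 with BSJ-03-123 did not pass the test. Without DMSO replicate 3 the BSJ-03-123 decrease was called. KIF5C, a kinesin-1 mostly of neurons, was among the least abundant, at 1.36, 1.05 and 1.25 CPM with DMSO, 0.934, 0.928 and 1.40 with palbociclib, 0.853, 1.58 and 1.32 with BSJ-03-123 and 0.655, 0.981 and 0.494 with YKL-06-102. Its change with YKL-06-102 was -0.76 ± 0.29 (edgeR adjusted p = 0.0381), lost with DESeq2 (adjusted p = 0.0867) and without DMSO replicate 1 or 3 or YKL-06-102 replicate 1 or 3 (-0.74 to -0.54). KIF9, a motor of motile cilia, measured 5.76, 4.96 and 5.64 CPM with DMSO, 6.05, 5.74 and 6.56 with palbociclib, 6.17, 5.74 and 5.85 with BSJ-03-123 and 6.51, 6.14 and 7.12 with YKL-06-102. It rose with YKL-06-102 (0.28 ± 0.10, edgeR adjusted p = 0.0324), and this was lost with DESeq2 (adjusted p = 0.0973) and without DMSO replicate 2 (0.23) or YKL-06-102 replicate 3 (0.24). YKL-06-102 against palbociclib called none of KIF5B, KIF5C, KIF1C and KIF9. KIF5B was called there with library totals and in a fit of the 2 groups alone. Of its exon length, 14.9% is shared with the antisense gene KIF9-AS1 and 3.04% with KLHL18.

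**Figure D5:**
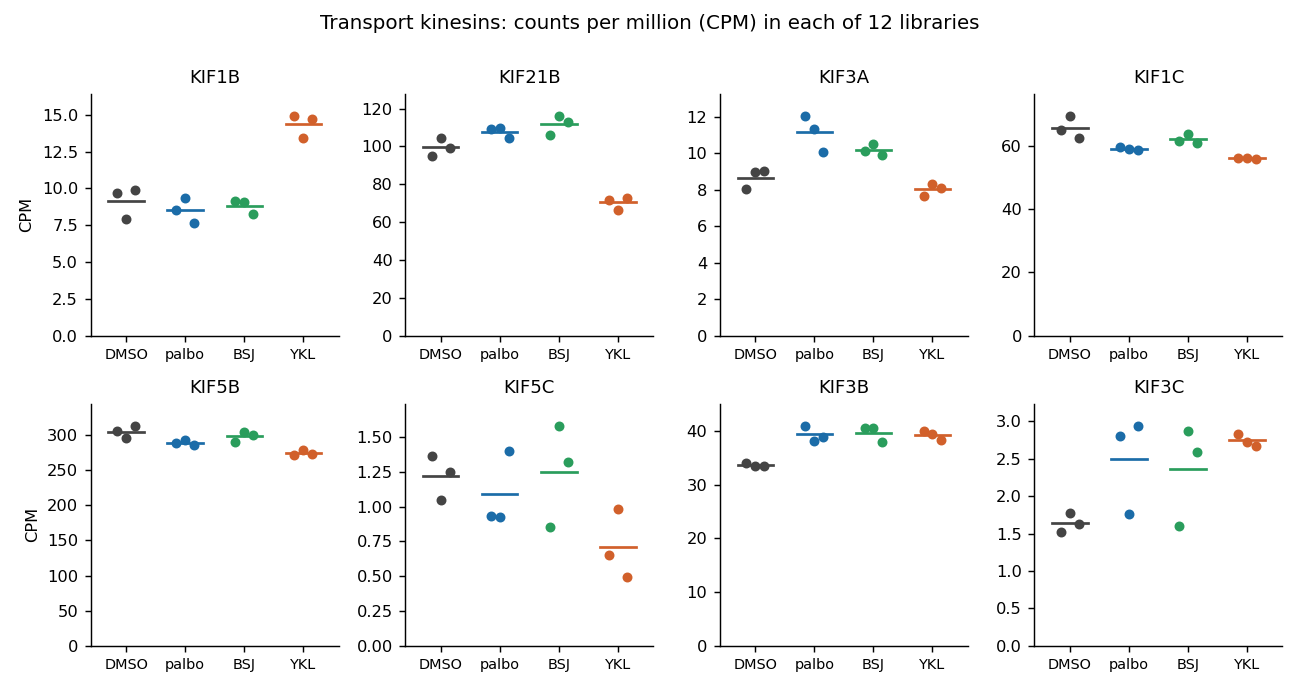
CPM of 8 kinesins outside the mitotic group in each library (points) with the group mean (line), from 0; palbo, BSJ and YKL stand for palbociclib, BSJ-03-123 and YKL-06-102. YKL-06-102 libraries are the highest in KIF1B and the lowest in KIF21B, while the treated groups overlap in KIF3B.

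Direct comparison of YKL-06-102 with palbociclib at the same dose and time called 8 members higher and 2 lower of 30, where 12.7% of all tested genes were higher and 11.9% lower, 24.7% in sum. The 8 were KIF1B, KIF24 and 6 mitotic members, KIF15, KIF18B, KIF20A, KIF22, KIF2C and KIF4A, and the 2 were KIF21B and KIF3A. The 11 mitotic members had a median of 0.13 and a range from -0.064 to 0.27, against a median of -0.0099 for all tested genes. Among alternatives, 5 to 8 mitotic members were called, 8 without DMSO replicate 2.

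BSJ-03-123 against YKL-06-102 called 5 members higher and 5 lower, where 9.74% of all tested genes were higher and 10.4% lower, 20.1% in sum. KIF1C, KIF21B, KIF3A, KIF5B and KIF5C were higher with BSJ-03-123, and KIF1B, KIF24, KIF18B, KIF20A and KIF2C lower. KIF5B differed by 0.12 ± 0.031, KIF1C by 0.15 ± 0.042, KIF5C by 0.82 ± 0.29 and KIF24 by -0.20 ± 0.071. For the mitotic members the values were -0.15 ± 0.041 for KIF20A, -0.14 ± 0.050 for KIF18B and -0.11 ± 0.033 for KIF2C, and the median of the 11 was -0.11. This count rested on single libraries: without BSJ-03-123 replicate 2 it was 3 members and 0 mitotic ones, and without DMSO replicate 2 it was 14 and 6. The median of the 11 mitotic members stayed between -0.13 and -0.099 over all alternatives and was -0.11 without BSJ-03-123 replicate 2. Of 18 alternatives, 8 lost the call of KIF24, 7 that of KIF5C, 6 that of KIF1C, 5 that of KIF18B, 3 that of KIF5B, 2 that of KIF2C and 1 that of KIF20A. Without BSJ-03-123 replicate 3 the mitotic count was 1, and without palbociclib replicate 1 or 2 it was 6.

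BSJ-03-123 against palbociclib called 0 of 30 members with edgeR and 0 with DESeq2, where 0.155% of all tested genes were called. At an unadjusted p below 0.05 there were 3 members, and the smallest adjusted p was 0.516. The 3 were KIF18B (0.12 ± 0.051), KIF1BP (0.18 ± 0.077) and KIF26A (0.18 ± 0.086), singled out after their values were seen, all higher with BSJ-03-123. For the 11 mitotic members the 95% intervals of the difference lay between -0.16 and 0.23 on the log2 scale. Over all 30 they reached from -0.74 to 0.77, the widest being those of the least abundant genes.

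Members not called against DMSO with any compound were KIF13B, KIF16B, KIF21A, KIF26A, KIF26B and KIF27. KIF13B and KIF16B, kinesin-3 motors of membrane cargo, had mean levels between 13.3 and 15.2 CPM and between 9.64 and 11.0 CPM in the 4 groups. KIF16B was at 0.18 ± 0.086 with palbociclib (edgeR adjusted p = 0.106), and was called with library totals and without palbociclib replicate 2. KIF26A and KIF26B, atypical kinesins without ATPase activity, were at 15.8 ± 2.11 and 2.55 ± 0.562 CPM (SD, n = 3) with DMSO, and their log2 fold changes ran from -0.18 to 0.068. KIF26A was at -0.18 ± 0.086 with palbociclib and -0.18 ± 0.085 with YKL-06-102 (edgeR adjusted p = 0.106 and 0.112). It was called with both compounds without DMSO replicate 1. KIF21A and KIF27, kinesin-4 members, were near 1 CPM, at 1.57 ± 0.503 and 1.09 ± 0.372 CPM (SD, n = 3) with DMSO. At that depth their intervals were wide: for KIF27 with YKL-06-102 it ran from -0.48 to 0.57. KIF21A was at -0.59 ± 0.26 with YKL-06-102 (95% interval -1.11 to -0.064, edgeR adjusted p = 0.0703), with all 3 libraries below those of DMSO, and was called with the replicate number as a block and without DMSO replicate 2. The 10 genes that did not pass the filter were KIF1A, KIF4B, KIF7, KIF13A, KIF12, KIF19, KIF6, KIF25, KIF2B and KIF5A. KIF1A had 40 counts in all 12 libraries together, KIF4B and KIF7 had 25 each, KIF13A 15, and KIF12, KIF19 and KIF6 had 5, 3 and 1. KIF25, KIF2B and KIF5A had 0 counts, which allows up to 3 counts per library, or 0.117 to 0.160 CPM, for counting error only. KIF4B is a near-identical retrocopy of KIF4A, so its counts are uncertain, and KIF7 shares 11.8% of its exon length with TICRR, which had more counts.

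Kinesins outside the symbol rule and partner genes were read from lists chosen with earlier results of these data known. Of all tested genes, 17.6%, 15.7% and 21.3% were called lower with palbociclib, BSJ-03-123 and YKL-06-102, the background for the counts that follow. Of CENPE, KIFC1, KIFC2, KIFC3 and STARD9, 3 fell with each compound: KIFC1, the minus-end spindle motor (-0.63, -0.56 and -0.40 with palbociclib, BSJ-03-123 and YKL-06-102), STARD9, a centrosomal kinesin (-0.50, -0.48 and -0.43), and CENPE, the kinetochore kinesin (-0.14, -0.18 and -0.23). CENPE measured 70.7, 63.0 and 77.0 CPM with DMSO, 63.1, 63.4 and 63.8 with palbociclib, 59.2, 64.4 and 62.0 with BSJ-03-123 and 62.3, 58.1 and 58.4 with YKL-06-102, so that DMSO replicate 2 lay within or below the palbociclib and BSJ-03-123 ranges. Its palbociclib call was lost under 8 of 18 alternatives, among them the omission of DMSO replicate 3 (-0.076), DMSO replicate 1 (-0.14) or any palbociclib library (-0.15 to -0.14). Its BSJ-03-123 call was lost under 3, among them the omission of DMSO replicate 3 (-0.11) or BSJ-03-123 replicate 1 (-0.15), and without DMSO replicate 2 the values were -0.22 with palbociclib and -0.26 with BSJ-03-123. KIFC1 measured 123, 129 and 120.2 CPM with DMSO, 78.4, 79.2 and 83.0 with palbociclib, 84.1, 82.5 and 86.7 with BSJ-03-123 and 98.2, 93.1 and 90.4 with YKL-06-102. KIFC3, a minus-end motor of interphase cells, rose with palbociclib (0.74 ± 0.29) and YKL-06-102 (1.88 ± 0.26). It was near the lower end of detection, at 0.628, 0.726 and 0.488 CPM with DMSO. It measured 0.772, 1.19 and 1.205 CPM with palbociclib, 0.702, 0.909 and 0.660 with BSJ-03-123 and 2.21, 2.65 and 2.10 with YKL-06-102. The palbociclib call was lost under 11 of 18 alternatives, with values of 0.60 to 0.75 there. Among these were DESeq2 and the omission of DMSO replicate 1 or 3 or palbociclib replicate 2 or 3. All 20 mitotic partners of kinesins were called lower with palbociclib and with BSJ-03-123. With YKL-06-102 all 20 had negative log2 fold changes and 18 were called lower. The medians of these partners were -0.42, -0.41 and -0.30 with palbociclib, BSJ-03-123 and YKL-06-102. Among them PRC1, which bundles midzone microtubules and binds KIF4A, changed by -0.50, -0.45 and -0.29, RACGAP1 by -0.39, -0.40 and -0.31, and the citron kinase CIT by -0.55, -0.50 and -0.31.

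Dynein and dynactin genes, which serve transport towards the minus end, were called at shares near or below those of all tested genes, a difference that was not tested: of 21 tested, 2 rose and 3 fell with palbociclib and with BSJ-03-123, and 1 rose and 4 fell with YKL-06-102. All tested genes were called at 33.3%, 28.1% and 36.9% with palbociclib, BSJ-03-123 and YKL-06-102, and the medians of the 21 were -0.014, -0.017 and -0.020. Kinesin light chains and cargo adaptors, 14 tested, had 4 higher and 1 lower with palbociclib, 2 and 0 with BSJ-03-123, and 3 and 2 with YKL-06-102. In either direction 5, 2 and 5 were called, shares near or below those of all tested genes. By direction, 15.6%, 12.4% and 15.6% of all tested genes were called higher. The 4 of 14 with palbociclib were above that share. The 2 with BSJ-03-123 and 3 with YKL-06-102 were near it. The shares called lower were below those of all tested genes, 17.6%, 15.7% and 21.3%. These differences were not tested. The light chains, which link kinesin-1 heavy chains to cargo, diverged with YKL-06-102: KLC4 rose (1.25 ± 0.082), KLC2 fell (-1.79 ± 0.11), and KLC1 was at -0.012 ± 0.070 and did not pass the test. KLC4 measured 8.27, 7.46 and 7.81 CPM with DMSO and 17.7, 19.4 and 18.6 with YKL-06-102. KLC2 measured 13.5, 15.4 and 12.9 CPM with DMSO and 4.34, 4.05 and 3.79 with YKL-06-102, and neither gene's groups overlapped. KLC4 rose by 0.39 with palbociclib and 0.32 with BSJ-03-123, and KLC2 was at -0.13 and -0.20, neither called. Without BSJ-03-123 replicate 3 the KLC4 call with BSJ-03-123 was lost (0.25), and without DMSO replicate 3 KLC2 was called with BSJ-03-123 (-0.26). YKL-06-102 differed from palbociclib by 0.86 ± 0.075 for KLC4 and -1.66 ± 0.11 for KLC2 (edgeR adjusted p = 4.18e-10 and 3.72e-13).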

How the data were processed

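Raw counts by Ensembl gene were deposited, 1 column for each library. The submitters' processing notes list Trimmomatic 0.36, STAR 2.5.2b, HTSeq and the build hg38, while annotation release and strand setting are not given in the sources that were used. Libraries were poly(A)-selected, per the labels' protocols.

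GENCODE 29 (GRCh38) gave symbols to 57447 of the 58051 gene IDs. All 12 libraries were fitted with edgeR 4.0.16 in R 4.3.3: filterByExpr (minimum count 10, minimum total 15), TMM factors, quasi-likelihood test, 2-sided, Benjamini-Hochberg adjustment over 14214 genes, threshold 0.05. CPM use TMM factors, RPKM also merged exon length. SEs and 95% intervals are Wald values. Intervals and limits from counts cover counting error only. The tests were checked on simulated data. Alternatives were DESeq2 1.42.0, other scalings, no filter, 2-group fits, a replicate block and leaving out each library.

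The members, their grouping and the other gene lists were chosen with earlier results of these data known. Per-library values are given for mitotic members, members called between compounds and the 3 largest called changes in each direction per compound. Any member may be named.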

Additional observations from a re-analysis of the deposited data

How the results depend on the processing

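Over 18 alternatives, 12 of them leaving out 1 library, the number of KIF genes called was 17 to 21 for palbociclib against DMSO (20 as reported), 15 to 19 for BSJ-03-123 against DMSO (17), 19 to 23 for YKL-06-102 against DMSO (22), 0 for BSJ-03-123 against palbociclib (0), and 9 to 12 for YKL-06-102 against palbociclib (10). For BSJ-03-123 against YKL-06-102 it was 10 as reported, 8 to 13 under the other settings and 3 to 14 with 1 library left out, lowest without BSJ-03-123 replicate 2. Of all genes, 22 were called for BSJ-03-123 against palbociclib, against 64 without a filter, 43 with DESeq2, 75 in a fit of the 2 groups and 3 to 116 with 1 library left out. Of 3240 values of the 30 KIF genes under alternatives, 76 lost a call, 42 gained one and 0 called values reversed their sign. For 11 named genes of the partner lists, whose alternatives were chosen after seeing the data, 28 of 1188 lost a call, 11 gained one and 0 reversed. The cause was not tested. Replicate numbers did not pair the libraries: deviations of same-numbered libraries correlated at -0.048 to 0.11, over 0.1 in 1 of 18 pairs. With the replicate number as a block, 20, 17 and 23 KIF genes were called against DMSO in the order above and 0, 10 and 9 between compounds. Genes near 1 CPM, KIF27, KIF21A and KIF5C, had the widest intervals, and calls there rest on few counts.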
